A study of Zeugodacus cucurbitae with 6 samples.

Results

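Membrane trafficking genes of the melon fly Zeugodacus cucurbitae were followed in 3rd instar larvae that hatched from irradiated or non-irradiated eggs. They were taken as every gene of the deposited table whose symbol began with 1 of 13 prefixes (Rab, Arf, Arl, Vps, Sec, Snx, Stx, Syx, Vamp, Cop, Trappc, Exoc and Cog), in most cases followed by a digit. The prefixes matched 16 of 12834 genes. There were 4 Rab genes (Rab11a_0, Rab3, Rab30_1 and Rab40c_1), 2 Arl genes (Arl4a_1 and Arl6ip6_2), 2 Vps genes (Vps16_1 and Vps35_1), 5 Sec genes (Sec14l2_2, Sec31a_1, Sec62_1, Sec63_0 and Sec63_1), and 1 gene each for Snx (Snx27_0), Syx (Syx4_0) and Cog (Cog3_0). The other 6 prefixes matched no gene. Only 1033 of the 12834 genes were listed under a symbol, and trafficking genes listed by number alone could not be reached by the prefixes. The final number of a name, as in Sec63_0, is part of the deposited identifier.

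The irradiated group came from eggs of about 25 h exposed to cobalt-60 gamma rays at a dose of 50 Gy, delivered at 1.0 Gy/min, and the non-irradiated group from eggs at 0 Gy. Each group had 3 libraries, and each library was made from the poly-A RNA of 20 pooled whole larvae. The paper describes 3 replicates per treatment, each of 3 Petri dishes of eggs, with 20 larvae frozen from each replicate. Neither the paper nor the labels say whether the replicates came from separate irradiations. The p-values thus measure the spread between these libraries, which may be partly technical. Since whole larvae were sequenced, fewer cells of a type and less RNA per cell cannot be told apart.

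Membrane trafficking moves proteins and lipids between the compartments of a cell in coated vesicles and tubules. Rab and Arf-like proteins are small GTPases that mark a membrane and recruit its machinery. Coats such as COPII form the vesicle, tethers such as the COG and HOPS complexes hold it at its target, and SNARE proteins such as the syntaxins drive fusion. Retromer and sorting nexins return cargo from endosomes, and the Sec62 and Sec63 proteins stand at the start of the route, where new proteins enter the endoplasmic reticulum. Symbols were matched by their letters, and not every matched gene belongs to these classes. Sec14l2 is named for lipid-binding proteins of the SEC14 family, and Arl6ip6 for a mammalian protein that binds the GTPase ARL6.

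The libraries held 17191722, 18311658 and 17701282 counts on genes in irradiated replicates 1, 2 and 3, and 13192748, 14115043 and 16344295 counts in non-irradiated replicates 1, 2 and 3. Irradiated replicates 1 and 2 were more alike than any other pair of libraries (Spearman correlation of 0.996 across genes, against 0.930 to 0.978 in the other pairs). Of 37 symbols marking tissues and cell types, 5 were found in the table, 1 of them the adult photoreceptor gene Arr1. Of these 5 genes, 0 passed the test (smallest adjusted p = 0.48, edgeR). No larval fat body, haemolymph or haemocyte marker was among them, so the label of larvae was not checked by these. The 3 muscle genes found had their lowest level in irradiated replicate 3 (1541 normalised CPM for Mlc1_1, 1958 for Tm1_1 and 1500 for Tm2_1, against at least 1786, 2481 and 1950 in every other library). Their part in the values below was not tested.

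In the edgeR test over 9768 genes, 0 of the 16 membrane trafficking genes passed an adjusted p of 0.05, against 3.74% of all tested genes. The study's threshold asked for FPKM above 1 in any library, unadjusted p under 0.05 and log2 fold change of at least 0.58 in size. Applied here to the edgeR values, it called 0 higher and 0 lower, where 6.0% of all genes were called higher and 5.58% lower. With no fold limit, the unadjusted p was under 0.05 in 4 genes that were higher in irradiated larvae (Sec62_1, Vps35_1, Sec14l2_2 and Vps16_1), against 10.7% of all genes, and in 1 gene that was lower, against 10.3%. The lower gene was Rab3, which passed the filter on low counts only through its non-irradiated libraries, where it was higher, so nothing is read from this count. Without irradiated replicate 1, Sec62_1 alone stayed under 0.05, and with irradiated replicates 1 and 2 summed into 1 library Sec62_1 and Vps35_1 did. DESeq2, which the study's methods name (as DEGseq2), called 1 gene, Sec62_1, at an adjusted p under 0.05 and 9.15% of the 11305 genes it tested. With its values the study's threshold called 0 of the 16. limma called 0 on either scale tried. All 16 genes passed the filter.

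The estimates were small. The log2 fold change (irradiated over non-irradiated) had a median of 0.06 over the 16 genes, or 0.11 without Rab3, beside −0.01 over all tested genes. Its absolute size had a median of 0.24 in the 16 genes and 0.24 in all tested genes. For 15 of the 16 genes the estimate stayed under 0.58 in size and its 95% interval lay within 1 log2 unit of 0. Leaving out Rab3, the intervals reached down to −0.61 and up to 0.76, and the highest bound was 1.69-fold, for Sec62_1. In 7 genes the whole interval lay within 0.58 of 0, and in the others a change of the study's threshold size was still inside it.

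**Figure D1:**
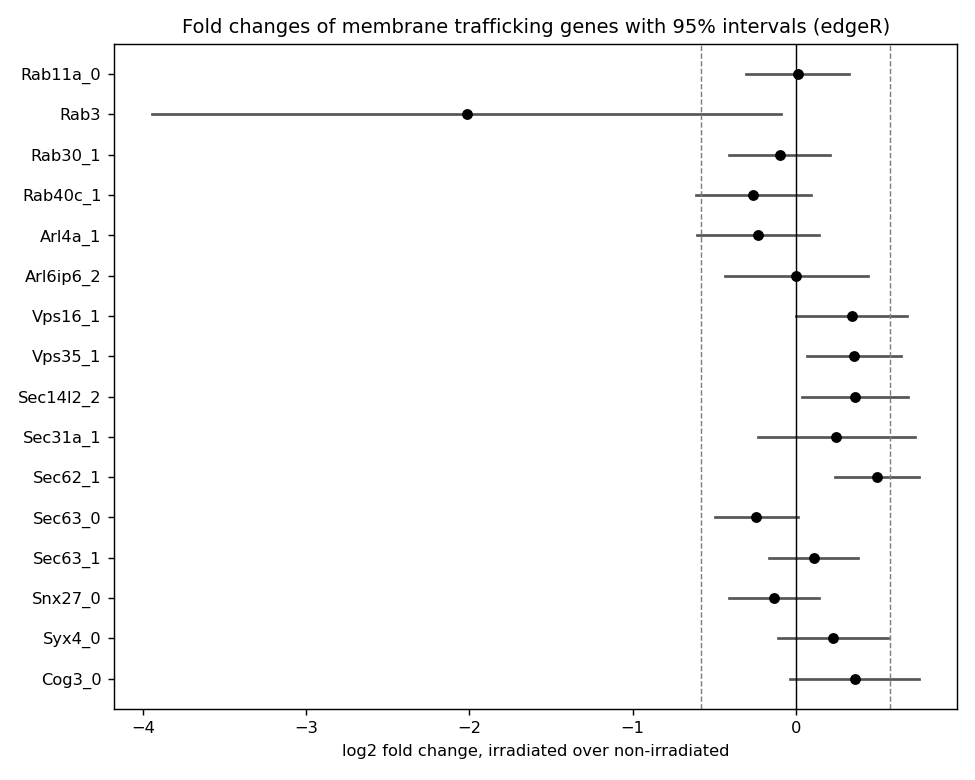
Log2 fold change of each gene (irradiated over non-irradiated, edgeR) with its 95% interval, with dashed lines at the study's limit of 0.58 on either side of 0. Every estimate except that of Rab3 (−2.02) lies between −0.26 and 0.50, and the Rab3 interval is the widest.

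The values of the groups did not overlap in 8 of the 16 genes (in CPM, counts scaled to a common library size by the TMM method). All irradiated libraries were above all non-irradiated libraries in 6 of them, against 15% of all tested genes. They were below in 2, Rab3 included, against 13.4%. Since Rab3 passed the filter on low counts only through its non-irradiated libraries, nothing is read from the lower count. The 6 were Sec62_1, Vps35_1, Vps16_1, Sec14l2_2, Cog3_0 and Syx4_0, and the 2 were Rab3 and Sec63_0. With the size factors of DESeq2 the number was again 8, with RLE normalisation it was 7, since Cog3_0 then overlapped, and in FPKM, which is scaled by the library total alone, it was 6, since Syx4_0 and Sec14l2_2 then overlapped.

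**Figure D2:**
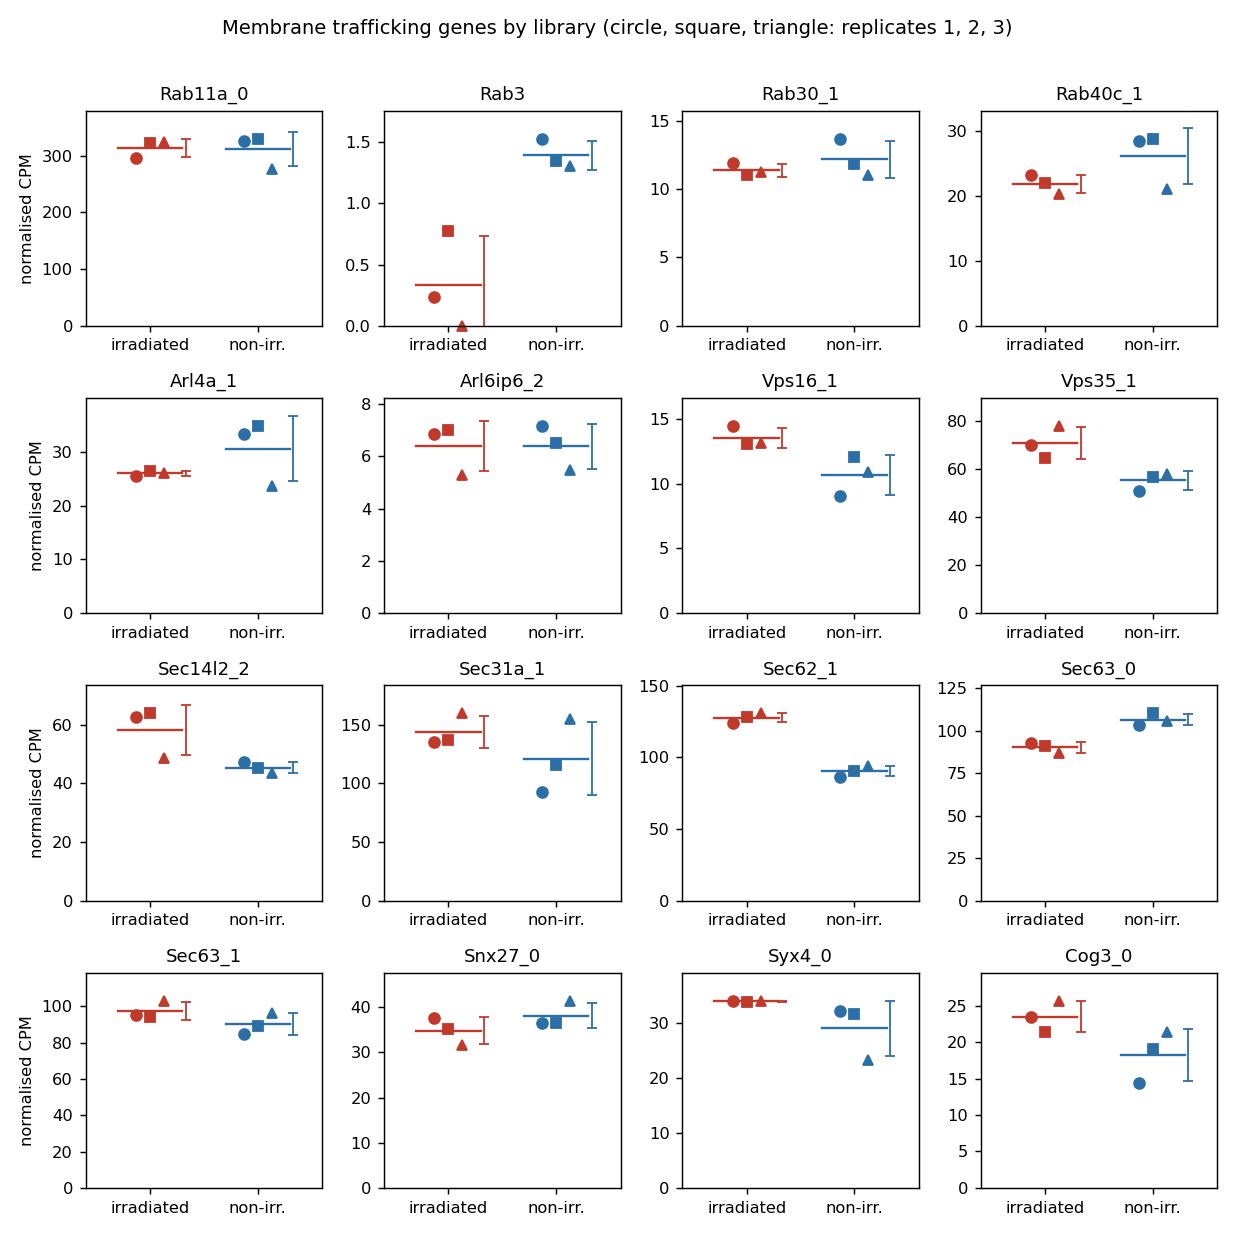
Normalised CPM of each gene in the 3 irradiated and 3 non-irradiated libraries, on a linear axis from 0, with the group mean as a line and the SD as a bar (cut at 0 for Rab3). Sec62_1 stands clear between the groups (124 to 131 CPM against 86.4 to 93.7 CPM), and non-irradiated replicate 3 (triangle) lies apart from the other non-irradiated libraries in Arl4a_1, Syx4_0 and Rab40c_1.

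Among the Rab genes, Rab11a_0 was the most abundant of the 16. Rab11 proteins direct the return of cargo through recycling endosomes to the cell surface. It was measured at 296, 321 and 324 normalised CPM in irradiated replicates 1, 2 and 3, and at 327, 330 and 277 CPM in non-irradiated replicates 1, 2 and 3. The groups overlapped fully, and the log2 fold change was 0.01 (SE 0.13, edgeR adjusted p = 0.967), with a 95% interval of −0.30 to 0.33. Rab30_1, whose mammalian counterpart sits on the Golgi, had 11.9, 11.0 and 11.3 CPM in irradiated larvae and 13.7, 11.8 and 11.0 CPM in non-irradiated larvae. It did not differ beyond the spread between libraries (log2 fold change −0.10, SE 0.13, adjusted p = 0.726).

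Rab40c_1 is named for a Rab protein with a SOCS box, a domain that in mammals couples it to a ubiquitin ligase. Its level was 23.3, 22.0 and 20.4 CPM in irradiated replicates 1, 2 and 3, and 28.5, 28.9 and 21.2 CPM in non-irradiated replicates 1, 2 and 3. Replicate 3 of the non-irradiated group lay within the irradiated range, and the log2 fold change was −0.26 (SE 0.15, adjusted p = 0.374). Without that library it was −0.39 (adjusted p = 0.11) and the groups no longer overlapped. The log2 fold change was −0.19 (adjusted p = 0.563) without non-irradiated replicate 1 and −0.18 (adjusted p = 0.582) without non-irradiated replicate 2.

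Rab3, known for the release of synaptic vesicles at nerve terminals, was the rarest of the 16 genes and had the largest estimate. It was counted 4, 14 and 0 times in irradiated replicates 1, 2 and 3, and 22, 18 and 21 times in non-irradiated replicates 1, 2 and 3. Every irradiated library was lower than every non-irradiated library, but the irradiated libraries ranged from 0 to 14 counts. A count of 0 in irradiated replicate 3 allows a level of up to 0.169 CPM (3 counts). The summed counts were 18 in irradiated and 61 in non-irradiated larvae, and after scaling by the TMM-adjusted library totals their ratio was 0.245, with an exact 95% interval of 0.136 to 0.420 that covers counting error only. The edgeR log2 fold change was −2.02 (SE 0.82, adjusted p = 0.222), with a 95% interval of −3.94 to −0.09. Rab3 passed the filter on low counts only through its non-irradiated libraries, so nothing is read from either interval. Since its FPKM did not exceed 0.742 in any library, Rab3 lay below the abundance that the study's threshold asks for. Of the 9 neuron markers listed, 1 was found. This was Syt1_0, a calcium sensor of synaptic vesicles, with 1.76, 1.05 and 0.227 CPM in irradiated larvae and 1.32, 0.604 and 1.80 CPM in non-irradiated larvae. Both genes were thus lowest in irradiated replicate 3, where Syt1_0 had 4 counts and Rab3 had 0. Syt1_0 overlapped between the groups (log2 fold change −0.31, edgeR adjusted p = 0.843). With counts this low, nothing is read from the 2 genes together. Without irradiated replicate 3 the Rab3 estimate was −1.44 (adjusted p = 0.264), and without irradiated replicate 2 it was −3.50 (adjusted p = 0.163).

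The Arl genes gave no difference beyond the spread. Arl4a, an Arf-like GTPase that in human cells recruits regulators of Arf proteins to the plasma membrane, was represented by Arl4a_1. It had 25.6, 26.5 and 26.0 CPM in irradiated replicates 1, 2 and 3, and 33.2, 34.8 and 23.6 CPM in non-irradiated replicates 1, 2 and 3. The irradiated libraries were close together and lay inside the non-irradiated range, and non-irradiated replicate 3 was the lowest of all 6 libraries. The log2 fold change was −0.23 (SE 0.16, adjusted p = 0.461), and −0.38 (adjusted p = 0.0894) without that library. Without non-irradiated replicate 2 it was −0.13 (adjusted p = 0.717). Arl6ip6_2 was measured at 6.87, 7.03 and 5.29 CPM in irradiated larvae and at 7.16, 6.52 and 5.46 CPM in non-irradiated larvae. Its log2 fold change was 0.00 (SE 0.19, adjusted p = 0.993), with a 95% interval of −0.43 to 0.44.

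Both Vps genes were higher in every irradiated library than in any non-irradiated one, and neither passed the adjusted test. Vps35 forms the core of retromer, the complex that retrieves cargo from endosomes. Vps35_1 had 69.7, 64.4 and 77.7 CPM in irradiated replicates 1, 2 and 3, and 50.8, 56.6 and 57.9 CPM in non-irradiated replicates 1, 2 and 3. The groups lay 6.49 CPM apart at their nearest libraries, and the mean was 70.6 ± 6.70 CPM in irradiated and 55.1 ± 3.80 CPM in non-irradiated larvae (SD, n = 3 each). The log2 fold change was 0.36 (SE 0.12, edgeR adjusted p = 0.158), or 1.28-fold with a 95% interval of 1.05 to 1.57.

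Vps16 is a subunit that the HOPS and CORVET complexes share, which tether membranes on the way to the lysosome. Vps16_1 had 14.5, 13.1 and 13.1 CPM in irradiated replicates 1, 2 and 3, and 9.04, 12.1 and 10.9 CPM in non-irradiated replicates 1, 2 and 3. The separation was narrow, with 0.988 CPM between the nearest libraries. Its log2 fold change was 0.34 (SE 0.14, adjusted p = 0.237).

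Of the sorting nexins, Snx27_0 was the single gene found. Sorting nexin 27 hands cargo with a PDZ-binding tail to retromer. Its values of 37.7, 35.1 and 31.6 CPM in irradiated larvae overlapped those of 36.5, 36.5 and 41.4 CPM in non-irradiated larvae. With a log2 fold change of −0.13 (SE 0.12, adjusted p = 0.571) it was opposite in sign to its retromer partner Vps35_1, and the difference between these genes was not tested.

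The Sec genes held the nearest to a call. Sec62 is a membrane protein of the endoplasmic reticulum that helps proteins enter through the Sec61 channel after they have been made. Sec62_1 was measured at 124, 128 and 131 normalised CPM in irradiated replicates 1, 2 and 3, and at 86.4, 90.7 and 93.7 CPM in non-irradiated replicates 1, 2 and 3. The groups were far apart relative to the spread within them, with means of 128 ± 3.18 CPM in irradiated and 90.2 ± 3.66 CPM in non-irradiated larvae (SD, n = 3 each). The log2 fold change was 0.50 (SE 0.11, edgeR adjusted p = 0.0556), or 1.41-fold with a 95% interval of 1.18 to 1.69. It thus missed both the adjusted threshold and the study's limit of 0.58. DESeq2 gave the same size (log2 fold change 0.50) with an adjusted p of 0.000624. Across all 15 alternatives to the fit the log2 fold change ranged between 0.47 and 0.53, the adjusted p between 0.000624 and 0.210, and the unadjusted p was under 0.05 in each.

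Sec63, a J-domain protein, works beside Sec62 at the channel and recruits the chaperone BiP on the inner side of the membrane. Sec63_0 had 92.4, 91.1 and 86.6 CPM in irradiated replicates 1, 2 and 3, and 103, 110 and 106 CPM in non-irradiated replicates 1, 2 and 3. All irradiated libraries were below all non-irradiated ones, with a log2 fold change of −0.24 (SE 0.11, adjusted p = 0.261) and a 95% interval of −0.49 to 0.01. Sec63_1 had 94.98, 93.8 and 103 CPM in irradiated larvae and 84.6, 89.4 and 96.4 CPM in non-irradiated larvae. These ranges overlapped, and the log2 fold change was 0.11 (SE 0.11, adjusted p = 0.636). Sec63_0 and Sec63_1 are neighbours in the RefSeq gene order of assembly idZeuCucr1.2. Whether the counting used strand is not given, and the sequences of these 2 neighbours were not compared. How reads were shared between them is not known, so the values of each are uncertain.

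The level of Sec62_1 relative to the Sec63 genes was compared within each library, a pair chosen after the values were seen, and is given as a description with no test. In FPKM, which is per length, Sec62_1 was 1.76, 1.84 and 1.97 times Sec63_0 in irradiated replicates 1, 2 and 3, and 1.09, 1.08 and 1.16 times in non-irradiated replicates 1, 2 and 3. The mean ratio was 1.86 ± 0.108 in irradiated and 1.11 ± 0.0421 in non-irradiated larvae (SD, n = 3 each). Relative to Sec63_1, Sec62_1 stood at 2.29, 2.39 and 2.22 in irradiated larvae and at 1.79, 1.78 and 1.70 in non-irradiated larvae. The ratio of Sec63_1 to Sec63_0 was 0.768, 0.769 and 0.888 in irradiated larvae and 0.612, 0.607 and 0.680 in non-irradiated larvae. In each of these ratios every irradiated library was above every non-irradiated one. For Sec62_1 over Sec63_0 this follows from the separations already given, with Sec62_1 higher and Sec63_0 lower in every irradiated library. The ratios also share genes, so they are not separate observations. The ratio of Sec62_1 to Sec31a_1 was computed as well, and its values of 2.52, 2.57 and 2.25 in irradiated larvae overlapped those of 2.56, 2.16 and 1.66 in non-irradiated larvae. Ratios within a library do not depend on how libraries are scaled, but they show unequal levels only, not which gene moved.

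**Figure D3:**
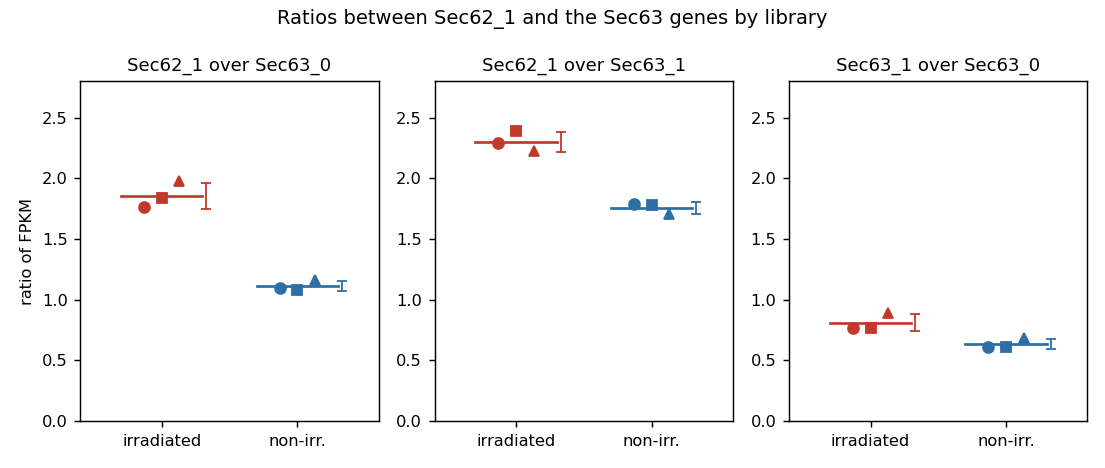
Ratios of FPKM within each library, on an axis from 0, for Sec62_1 over Sec63_0, Sec62_1 over Sec63_1 and Sec63_1 over Sec63_0, with group means as lines and SDs as bars (circle, square and triangle are replicates 1, 2 and 3). The Sec62_1 to Sec63_0 ratio averages 1.86 in irradiated and 1.11 in non-irradiated libraries, with no overlap.

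Other genes of entry into the endoplasmic reticulum were looked up after these values were seen. Hsc70-3_0, which encodes BiP in Drosophila, had a log2 fold change of 0.08 (adjusted p = 0.911). Spase22-23, a subunit of the signal peptidase, had 0.07 (adjusted p = 0.809), and Ost48, a subunit of the complex that attaches sugar chains, had −0.07 (adjusted p = 0.806). None of these 3 genes passed the test, and none had an estimate near that of Sec62_1. The 95% interval of Hsc70-3_0 was wide (−0.65 to 0.81) and held the Sec62_1 estimate of 0.50. For Spase22-23 it was −0.25 to 0.39 and for Ost48 −0.35 to 0.22. The differences between these genes and Sec62_1 were not tested.

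Sec31 forms the outer cage of the COPII coat, which buds vesicles from the endoplasmic reticulum. Sec31a_1 had 136, 137 and 160 CPM in irradiated replicates 1, 2 and 3, and 93.1, 116 and 155 CPM in non-irradiated replicates 1, 2 and 3. Its spread within groups (SD of 0.278 in log2 CPM) was the widest after that of Rab3, and non-irradiated replicate 3 fell among the irradiated libraries. Sec31a_1 had a log2 fold change of 0.25 (SE 0.20, adjusted p = 0.541), and 0.47 (adjusted p = 0.147) without that library. Without non-irradiated replicate 1 it was 0.09 (adjusted p = 0.815). Sec14l2_2 had 62.4, 63.8 and 48.5 CPM in irradiated larvae and 47.1, 45.2 and 43.4 CPM in non-irradiated larvae. Irradiated replicate 3 lay 1.39 CPM above the highest non-irradiated one, well below the other irradiated libraries. This gave a log2 fold change of 0.36 (SE 0.14, adjusted p = 0.193).

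Of the fusion and tethering genes, Syx4_0 and Cog3_0 were found. Syntaxin 4 is a SNARE of the plasma membrane. Syx4_0 had 34.1, 33.9 and 34.1 CPM in irradiated replicates 1, 2 and 3, and 32.1, 31.7 and 23.3 CPM in non-irradiated replicates 1, 2 and 3. The irradiated values were nearly equal, and non-irradiated replicate 3 was well below the other libraries. Syx4_0 had a log2 fold change of 0.23 (SE 0.14, adjusted p = 0.419), and 0.09 (adjusted p = 0.595) without that library. Cog3 is a subunit of the COG complex, which tethers vesicles within the Golgi. Cog3_0 had 23.4, 21.4 and 25.7 CPM in irradiated replicates 1, 2 and 3, and 14.4, 19.1 and 21.4 CPM in non-irradiated replicates 1, 2 and 3. The groups were separated by 0.0596 CPM at their nearest libraries, and the log2 fold change was 0.36 (SE 0.17, adjusted p = 0.275). Without non-irradiated replicate 1, the lowest library, it was 0.22 (adjusted p = 0.422).

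The number of genes without overlap, like the share of all tested genes, depended most on non-irradiated replicate 3. Leaving it out, 13 of the 16 genes had no overlap, 8 higher and 5 lower (Rab3 included) in irradiated larvae. The share of all tested genes was 43.2%. With all libraries it was 8 genes, and 28.4% of all tested genes. Leaving out any other library gave 8 or 9 genes, and between 33.5% and 40.8% of all tested genes. The genes gained were Arl4a_1, Rab40c_1 and Rab11a_0 on the lower side and Sec31a_1 and Sec63_1 on the higher side. In 8 of the 15 genes other than Rab3 (53.3%), this library was nearer the irradiated side than both other non-irradiated libraries were, against 38.3% of all tested genes. It was not set apart by any label.

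**Figure D4:**
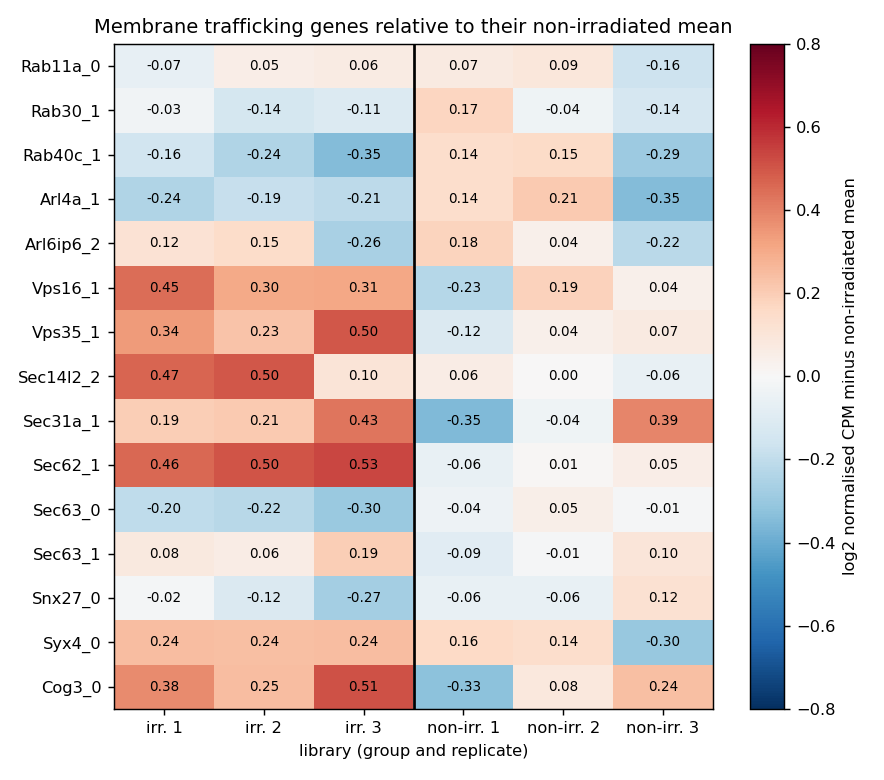
Log2 normalised CPM of 15 genes in each library minus the non-irradiated mean of that gene, with Rab3 left out for its low counts and red for higher, blue for lower. The Sec62_1 row reads 0.46 to 0.53 in the irradiated libraries, and the Sec31a_1 row reads 0.39 in non-irradiated replicate 3, close to the 0.43 of irradiated replicate 3.

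Among themselves, the 16 genes covered a wide range of levels. Mean FPKM over the 6 libraries was 227 for Rab11a_0, above 96.2% of all genes of the deposited table, tested or not. It was 62.3 for Sec62_1, 43.0 for Sec63_0, 30.6 for Sec63_1 and 27.5 for Sec31a_1. Sec14l2_2 (20.3) and Rab40c_1 (19.95) came next, followed by Vps35_1 (15.98), Arl4a_1 (14.1), Syx4_0 (13.7), Snx27_0 (8.82), Cog3_0 (6.73), Vps16_1 (4.69), Arl6ip6_2 (3.98), Rab30_1 (3.24) and Rab3 (0.388). The median was 15.1 FPKM, against 7.53 FPKM over the tested genes, and 11 of the 16 genes lay above that of the tested genes. Of the 15 neighbouring pairs in this order, 4 did not overlap over the 6 libraries. These were Rab11a_0 over Sec62_1, Sec63_0 over Sec63_1, Syx4_0 over Snx27_0 and Rab30_1 over Rab3. Compared within each library, the order held in all 6 libraries for 8 of the 15 pairs, Sec62_1 over Sec63_0 and Cog3_0 over Vps16_1 among them, and was turned in at least 1 library for the other 7. The order was much the same in both groups, with 11 genes at the same rank in irradiated as in non-irradiated larvae. The spread within groups (SD of log2 CPM) had a median of 0.160 over the 16 genes and 0.238 over all tested genes, and was smallest in Sec63_0 (0.0477) and Sec62_1 (0.0487).

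**Figure D5:**
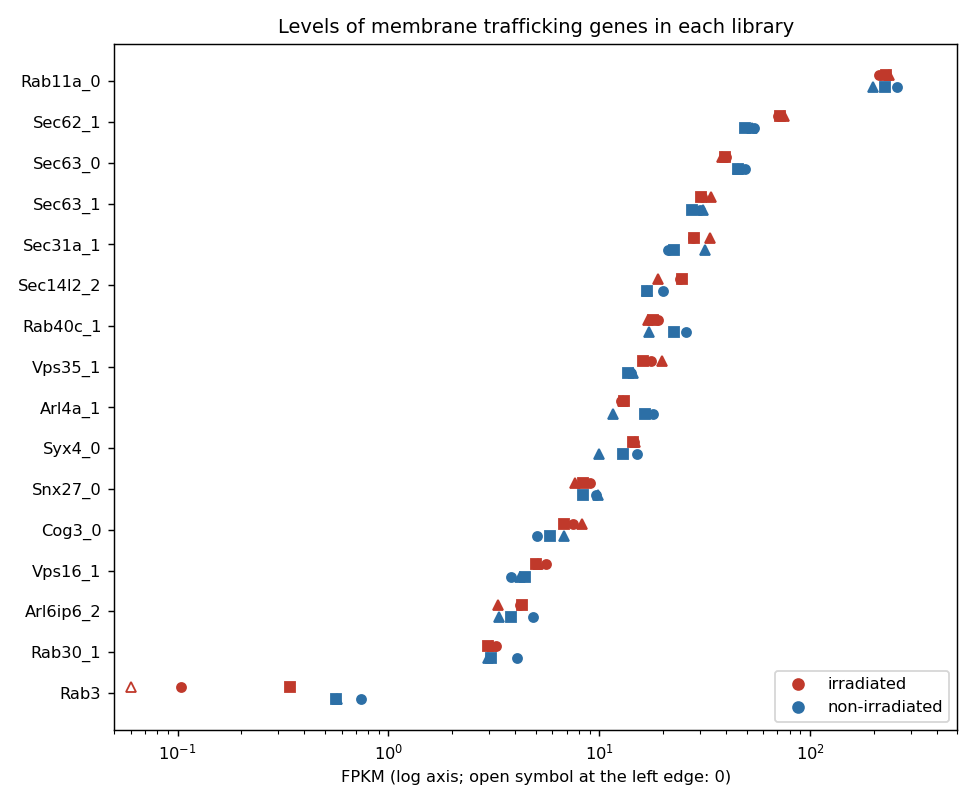
FPKM of each gene in each library on a log axis, ordered by the mean over all 6 libraries, with irradiated libraries above non-irradiated ones in each row (an open symbol marks a value of 0). Levels run from 227 FPKM on average for Rab11a_0 to 0.388 FPKM for Rab3.

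A list of 268 symbols of other trafficking genes, outside the prefixes, found 14 genes in the table. The adjusted test called 3.74% of all tested genes, and the study's threshold called 6.0% higher and 5.58% lower. An unadjusted p under 0.05 (edgeR) was found in 10.7% that were higher and 10.3% that were lower. Each of these criteria called 0 of the 14 list genes, and nothing is read from this in so few genes. Their median log2 fold change was 0.13, with a range of −0.44 to 0.28, and the groups did not overlap in 4 genes that were higher (15% of all tested genes) and 1 that was lower (13.4%) in irradiated larvae. The clathrin heavy chain gene Chc_1, which forms the coat of endocytic vesicles, had 539, 546 and 577 CPM in irradiated larvae and 470, 385 and 529 CPM in non-irradiated larvae (log2 fold change 0.26, SE 0.16, adjusted p = 0.388). Synaptobrevin (Syb_1), a SNARE of the vesicle, had 209, 199 and 170 CPM in irradiated larvae and 207, 204 and 137 CPM in non-irradiated larvae (log2 fold change 0.08, SE 0.19, adjusted p = 0.860). Tbc1d20_1, named for a mammalian protein that switches Rab GTPases off, had a log2 fold change of −0.08 (adjusted p = 0.724). Hgs_2, which sorts ubiquitinated cargo in the ESCRT pathway, had −0.12 (adjusted p = 0.864), and the golgin Golga2_2 had 0.26 (adjusted p = 0.308). The 1 gene below its non-irradiated range, named after its values were seen, was Ap3s1_1, a subunit of the AP-3 adaptor, at −0.44 (SE 0.19, adjusted p = 0.262). It had 25.5, 23.2 and 25.5 CPM in irradiated larvae and 43.95, 29.98 and 26.5 CPM in non-irradiated larvae. Non-irradiated replicate 1 lay far above the other libraries, and non-irradiated replicate 3 was close to the irradiated ones.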

How the data were processed

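RNA-seq libraries were prepared from pools of 20 larvae with poly-T beads and a NEBNext Ultra kit and sequenced as paired-end reads of 150 bp. The authors used Perl scripts to drop reads with adapters, poly-N or low quality, mapped what was left with HISAT2 and counted it with HTSeq (version 0.6.1p2 in the submitters' processing notes, another version in the paper's methods). The authors deposited whole-number counts per gene, not normalized, and FPKM values made from these counts, the library total and 1 length per gene. The FPKM columns were checked against this relation for 10492 genes.

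From the counts, groups were compared in R (version 4.3.3) with the robust quasi-likelihood test of edgeR (version 4.0.16) after filterByExpr and TMM normalization, with Benjamini-Hochberg adjustment over the 9768 genes that passed the filter. Samples were grouped by their labels, all 6 libraries were used and no covariate was fitted. Standard errors (SE) were derived from the estimate and the F value. The alternatives tried were limma (version 3.58.1) on log2 FPKM with a pseudocount of 1 or 0.1, DESeq2 (version 1.42.0), scaling by RLE or by library totals alone, a minimum of 10 counts per library or no filter, other thresholds, the replicate number as a block, irradiated replicates 1 and 2 summed, and the omission of each library. The scripts were tested on simulated counts.

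The genes and lists were chosen with earlier results of these data known. All members of the prefixes are named. From the list of other trafficking genes, the rule named those called by the study's threshold and the gene listed first in each role. All 16 genes were found in the RefSeq gene table of assembly idZeuCucr1.2, used for neighbours only, since the authors used another build and no coordinates are given. At totals between 13192748 and 18311658, a single count was worth between 0.0546 and 0.0758 CPM before TMM scaling.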

Additional observations from a re-analysis of the deposited data

How the results depend on the processing

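Of 239 log2 fold changes of single genes under an alternative, 226 kept their direction and their side of the adjusted threshold of 0.05, 1 passed it (Sec62_1 with DESeq2) and 12 changed sign, in 2 genes whose estimates were near 0. For Arl6ip6_2 the log2 fold change was −0.00022 with at least 10 counts in every library, −0.051 with irradiated replicates 1 and 2 summed, −0.021 with library totals alone, −0.016 with limma on log2(FPKM + 0.1) and −0.014 with limma on log2(FPKM + 1), and between −0.10 and 0.13 with 1 library left out. For Rab11a_0 it was −0.0076 with library totals alone and between −0.061 and 0.058 with 1 library left out. With 1 library left out, the estimate ranged from −0.16 to −0.0057 for Rab30_1, reached −0.07 for Snx27_0 (−0.13 with all libraries) and 0.07 for Sec63_1 (0.11), and none of these passed the threshold. The count of genes called at the adjusted threshold was 1 with DESeq2 and 1 at a threshold of 0.1 (both Sec62_1), and 0 in every other fit. By the study's threshold it was 1 without the FPKM minimum (Rab3), an alternative chosen after seeing the data. The count of genes without overlap ranged from 8 to 13 with 1 library left out. The count at an unadjusted p under 0.05 ranged from 1 (without irradiated replicate 1) to 6 (without non-irradiated replicate 3). The share of all tested genes at this level is not given for these fits, so nothing is read from the range. Rab3 had no value with at least 10 counts in every library. Over all genes, 365 passed the adjusted threshold, against 1034 with DESeq2, 25 with irradiated replicates 1 and 2 summed, and 21 to 301 with 1 library left out. Same-numbered libraries did not deviate together (correlations of −0.0123, −0.0955 and −0.155 across 9768 genes). With 3 libraries a group, these values cannot show whether the numbers pair the libraries. With the replicate number as a block, 0 of the 16 genes passed the adjusted threshold, and 89 of all genes did. In that fit 3 of the 16 had an unadjusted p under 0.05 (Rab3 included), again with no share of all genes beside it. The cause of these differences was not tested. With 3 libraries a group, 9 of the 16 intervals reached past 0.58 in size, and Rab3 was limited by its counts.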
